A study of Homo sapiens with 4 samples.

Results

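The genes described here are NFE2L2, which encodes the transcription factor NRF2, its inhibitor gene KEAP1, and 7 antioxidant genes that NRF2 is known to activate: GCLC, GCLM, TXNRD1, SRXN1, NQO1, HMOX1 and ME1. They were taken by gene name, all 9 were found among the 58735 genes of the deposited tables, and all 9 passed the filter on low counts. The RNA came from HCT116, a human colon carcinoma cell line grown in McCoy's 5A medium with serum, and was sequenced in 2 groups with 2 libraries each. One group carried a control shRNA (control_sh) and the other an shRNA against RBM25 (RBM25_sh), a splicing regulator. The sources used here do not give the number of hairpins, the time after knockdown or whether replicates were grown apart. The p-values below therefore rest on the spread among the 4 libraries alone, and that spread may be technical.

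NRF2 is a leucine-zipper factor that is made continuously and broken down continuously. KEAP1 holds it on a CUL3 ubiquitin ligase, and oxidants or electrophiles that modify KEAP1 let NRF2 accumulate, pair with a small MAF protein and bind antioxidant response elements. Its targets make glutathione, keep thioredoxin reduced, supply NADPH and remove quinones and heme, and in colon cancer cells the pathway is known for resistance to oxidative stress. Much of this control acts on the NRF2 protein, which RNA counts do not measure.

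The short windows below show which members carry the core letters of an antioxidant response element close to a start site, since the antioxidant members are known as NRF2 targets. The letters searched were TGACNNNGC on both strands, in RefSeq promoter windows of 300 bases on GRCh38.p14, 250 before and 50 after each start. Windows were held for 8 of the 9 genes (not HMOX1), 11 windows in all, and 4 genes had a match, in 5 windows. The match farthest upstream in each TXNRD1 window and in the ME1 window is shown, with the KEAP1 match that resembles the GCLM one. Of all 35116 windows of that length 13.3% held a match. Capitals mark the matched letters, and each run is read 5′ to 3′ along the gene.
GCLM, chr1:93909446-93909474, minus strand: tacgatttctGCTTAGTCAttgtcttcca
KEAP1, chr19:10502784-10502812, minus strand: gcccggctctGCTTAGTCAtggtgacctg
TXNRD1, chr12:104215670-104215698, plus strand: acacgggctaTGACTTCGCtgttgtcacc
TXNRD1, chr12:104286920-104286948, plus strand: gtggatttctGCTTTGTCAttctgactct
ME1, chr6:83431170-83431198, minus strand: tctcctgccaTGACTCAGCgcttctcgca
GCLM and KEAP1 hold the same 9 letters in capitals, which begin 34 bases before the GCLM start and 31 before the KEAP1 start. The KEAP1 match was chosen for this likeness, and its window also held a match of other letters, beginning 54 bases before the start. TXNRD1 has a match in both of its windows, beginning 99 and 102 bases upstream. No match in these windows was found for NFE2L2, GCLC, NQO1 and SRXN1, which says only that these letters are not in these windows.

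Library totals ran from 15528274 to 16982663 counts. Of 11 colon epithelial markers 6 were at 1 FPKM or more in every library (EPCAM, CDH1, KRT8, KRT18, KRT19, CDX2), whereas VIL1, CDX1, LGR5 and GPA33 were at or near 0. KRT20, the remaining marker, was at 0.561 and 0.087 FPKM in the control_sh libraries and at 1.28 and 1.03 FPKM in the RBM25_sh libraries. The summed level of the 11 was 843 and 1053 FPKM in the control_sh libraries and 1094 and 1292 FPKM in the RBM25_sh libraries. Of 12 markers of other cell types 10 were under 1 FPKM in every library, the exceptions being COL1A1 and ACTA2, and their summed level was 5.46 and 8.11 FPKM in the control_sh libraries and 4.66 and 5.60 FPKM in the RBM25_sh libraries. RBM25, the targeted gene, was at 155.3 and 114.9 CPM (counts scaled to library size by TMM) in the control_sh libraries and at 44.0 and 35.7 CPM in the RBM25_sh libraries, or −1.76 ± 0.30 as log2 fold change (SE, edgeR adjusted p = 0.0195). The edgeR adjusted p was 0.119 and 0.202 without RBM25_sh replicate 1 and replicate 2. The part of the marker levels in the results below was not tested. Replicate 2 exceeded replicate 1 in GC-rich genes of both groups (Spearman correlation with GC content of 0.82 in control_sh and 0.84 in RBM25_sh, over 10479 genes, and genes are not independent samples). The fold change itself had a correlation of −0.30 with GC content. For this reason each member is given by the edgeR fit and again after a GC correction, which removes every library's trend with GC content and with it any difference between the groups that follows GC content.

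No member passed the edgeR threshold of an adjusted p of 0.05, in either direction. Of all 16091 genes tested 0.653% were called higher and 2.40% lower. With 2 residual degrees of freedom, a member that was not called is not shown to be unchanged. The nearest to the threshold were NQO1 and TXNRD1, 2.02-fold and 1.88-fold lower in RBM25_sh, each with groups that did not overlap. Their unadjusted edgeR p-values of 0.003 and 0.00617 were the 2 under 0.05 among the 9 members, where 3444 of all 16091 genes tested were under 0.05, so this share is near that of all genes. The DESeq2 Wald test called 1 member, NQO1, lower, where it called 699 genes lower and 386 higher among those kept by the same filter. By limma-voom no member was called, where 290 genes were called lower and 84 higher. The CPM ranges of the groups did not overlap for 3 of 9 members, all lower in RBM25_sh (NQO1, TXNRD1, GCLC), where 27.9% of all genes tested lay lower without overlap and 23.9% higher. After the GC correction 3 members were called lower (NQO1, TXNRD1, GCLC) and 2 higher (KEAP1, HMOX1). That fit called 15.3% of all genes lower and 12.8% higher. The corrected ranges did not overlap for 6 of 9 members and for 83 of the 113 tested genes of the pathway lists below. This share was not computed over all genes. Each fit below without 1 library leaves a group with a single library, which is assumed to vary like the other group, so its p depends on which library was left out. The median log2 fold change of the 9 genes was −0.14, against −0.04 over all genes tested. After the GC correction these medians were −0.35 and −0.02. In these bulk libraries, fewer cells expressing a gene and less RNA per cell cannot be told apart.

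**Figure D1:**
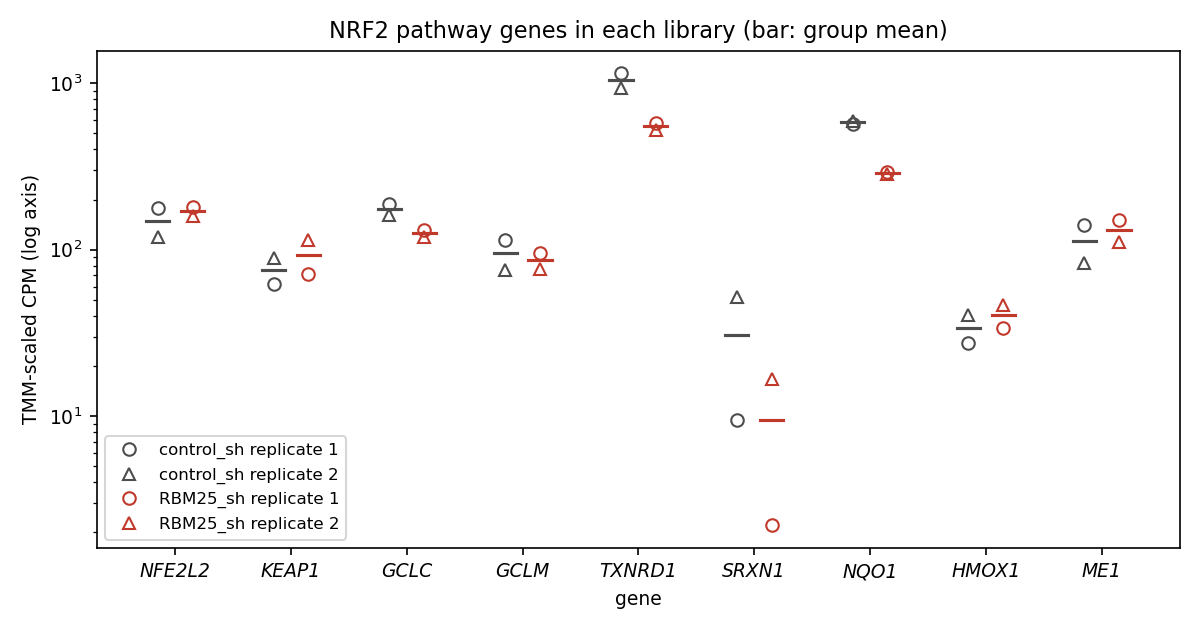
TMM-scaled CPM of the 9 genes in each library on a log axis, with circles for replicate 1, triangles for replicate 2 and bars for the group means. The RBM25_sh libraries lie below both control_sh libraries for NQO1, TXNRD1 and GCLC, and SRXN1 spans from 2.21 to 52.1 CPM.

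NFE2L2 RNA did not differ between the groups beyond the spread of the libraries. NFE2L2 (ENSG00000116044, GRCh38 chromosome 2, 177227595 to 177392697, minus strand) was at 177.3 and 119.5 CPM in the control_sh libraries and at 180.6 and 158.8 CPM in the RBM25_sh libraries. The groups overlapped, with control_sh replicate 2 the lowest of the 4. The means were 148 ± 40.9 and 170 ± 15.4 CPM (SD, n = 2 each), and the log2 fold change was 0.19 ± 0.29 (edgeR adjusted p = 0.749). The GC correction left it at 0.15 ± 0.15 (edgeR adjusted p = 0.493). Without control_sh replicate 2 the sign turned, to −0.06. NFE2L2 shares 54 exon bases with AGPS on the opposite strand, and reads in these cannot be told apart where strand was not used. It shares 1054 with the noncoding gene AC019080.1 on the same strand, where strand does not separate the reads. AC019080.1 had 82 and 83 counts in the control_sh libraries and 30 and 35 counts in the RBM25_sh libraries.

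KEAP1 RNA, which codes for the adaptor that hands NRF2 to the ubiquitin ligase, was highest in RBM25_sh replicate 2. KEAP1 (ENSG00000079999, chromosome 19, 10486120 to 10503741, minus strand) was at 61.8 and 88.6 CPM in the control_sh libraries and at 71.6 and 113.7 CPM in the RBM25_sh libraries. The groups overlapped, and replicate 2 was the higher library in each. The log2 fold change was 0.30 ± 0.32 (edgeR adjusted p = 0.639), and it was −0.03 without RBM25_sh replicate 2. KEAP1 has the highest GC content of the members, 60.3% in its longest transcript. The 1162 genes within 2 percentage points of that had a median log2 fold change of −0.20. With the GC trend removed the values were 70.7 and 67.1 CPM against 91.3 and 102.8 CPM. These do not overlap, as was so for 6 of the 9 members, and KEAP1 was called higher (0.50 ± 0.13, edgeR adjusted p = 0.0188).

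The 2 subunit genes of glutamate-cysteine ligase, the rate-limiting enzyme of glutathione synthesis, did not pass by edgeR, and their groups were apart for the catalytic subunit and overlapped for the modifier. GCLC, the catalytic subunit (ENSG00000001084, chromosome 6, 53497341 to 53616970, minus strand), was at 187.5 and 162.0 CPM in the control_sh libraries and at 131.7 and 118.7 CPM in the RBM25_sh libraries. Both RBM25_sh libraries lay below both controls. The log2 fold change of −0.48 ± 0.27 did not pass (edgeR adjusted p = 0.334). It was called lower after the GC correction, at −0.56 ± 0.12 (edgeR adjusted p = 0.0102). GCLC shares 529 exon bases with a lincRNA gene on the same strand, AL033397.1, which had 15 counts or fewer in each library.

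GCLM, the modifier subunit (ENSG00000023909, chromosome 1, 93885205 to 93909456, minus strand), was at 115.0 and 75.4 CPM in the control_sh libraries and at 95.7 and 76.8 CPM in the RBM25_sh libraries. The RBM25_sh libraries lay between the controls. The log2 fold change was −0.14 ± 0.30 (edgeR adjusted p = 0.826), and it turned to 0.20 without control_sh replicate 1 and 0.04 without RBM25_sh replicate 2. GCLM has the lowest GC content of the members, 37.3%. The 1243 genes within 2 percentage points of that had a median log2 fold change of 0.25. With the GC trend removed the values were 100.8 and 101.0 CPM against 79.6 and 78.7 CPM, without overlap, and the log2 fold change of −0.35 ± 0.12 stood at an edgeR adjusted p of 0.0513. Whether GCLC and GCLM differ in their response was not tested.

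TXNRD1, cytosolic thioredoxin reductase, which uses NADPH to keep thioredoxin reduced, had the highest CPM of the members. TXNRD1 (ENSG00000198431, chromosome 12, 104215779 to 104350305, plus strand) was at 1145 and 933.7 CPM in the control_sh libraries and at 577.8 and 525.6 CPM in the RBM25_sh libraries. The groups were well separated, with the higher RBM25_sh library far below the lower control. The means of 1039 ± 150 and 552 ± 36.9 CPM (SD, n = 2 each) lie −0.91 ± 0.26 apart on the log2 scale (edgeR adjusted p = 0.0904). TXNRD1 passed without a filter on low counts (edgeR adjusted p = 0.0483) and with a replicate block (edgeR adjusted p = 0.000105). It did not pass by the DESeq2 Wald test (adjusted p = 0.0507) or limma-voom (adjusted p = 0.0899). It passed after the GC correction (−0.98 ± 0.15, edgeR adjusted p = 0.00241) and without control_sh replicate 2 (−1.06, edgeR adjusted p = 0.00451). It did not pass without control_sh replicate 1 (edgeR adjusted p = 0.0611), RBM25_sh replicate 1 (0.591) or RBM25_sh replicate 2 (0.57). The processed pseudogene RPL18AP3 and the gene EID3 lie within TXNRD1 without sharing its exons.

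SRXN1, sulfiredoxin, which repairs over-oxidized peroxiredoxins, varied most between replicates of the members. SRXN1 (ENSG00000271303, chromosome 20, 646615 to 653370, minus strand) had 150 and 933 counts in the control_sh libraries and 33 and 263 counts in the RBM25_sh libraries, or 9.49 and 52.1 against 2.21 and 16.8 CPM. Replicate 2 was the higher library in both groups, and RBM25_sh replicate 2 lay above control_sh replicate 1, so the groups overlapped. Within each replicate number the RBM25_sh library was the lower. The log2 fold change had the largest size and the largest error of the members, −1.70 ± 0.86 (edgeR adjusted p = 0.295), and the GC correction left it at −1.56 ± 0.76 (edgeR adjusted p = 0.153). The value moved with the library left out, from −3.75 without RBM25_sh replicate 2 (edgeR adjusted p = 4.47e-05) and −2.44 without control_sh replicate 1 (1.74e-09) to −0.85 without RBM25_sh replicate 1 (0.778) and 0.0026 without control_sh replicate 2 (0.998). With replicate number as a block the edgeR log2 fold change was −1.80 ± 0.21, and no label says what same-numbered libraries share. Replicate 2 exceeded replicate 1 by 2.44 on the log2 scale in control_sh and by 2.85 in RBM25_sh. Over the 1243 genes within 2 percentage points of its GC content of 53.6%, the median of that difference was 0.22 and 0.18. SRXN1 shares 2292 exon bases with AL121758.1, a protein-coding gene on the same strand with 5 counts or fewer in each library. The part of this overlap in the SRXN1 values was not tested.

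**Figure D2:**
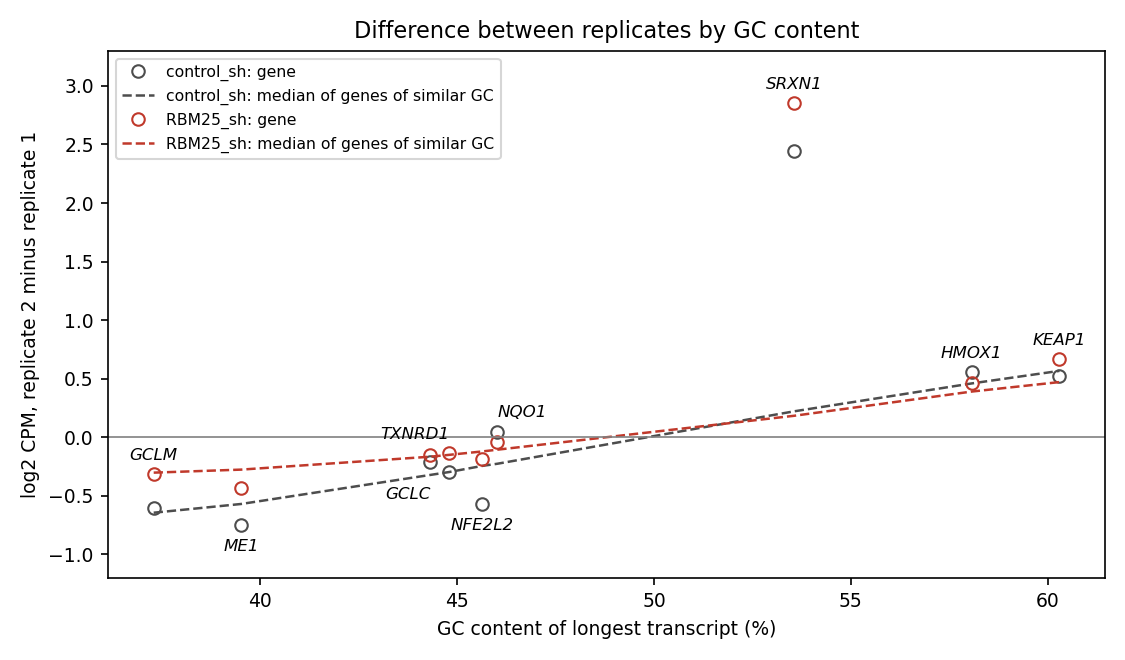
Difference in log2 CPM between replicate 2 and replicate 1 of each group against the GC content of the longest transcript, with circles for the 9 genes and dashed lines joining the medians of genes within 2 percentage points of each gene's GC content. GCLM and ME1 lie below 0 and HMOX1 and KEAP1 above 0 near the lines, while SRXN1 lies at 2.44 and 2.85, far above the medians of 0.22 and 0.18.

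NQO1, the quinone reductase that is widely used as a readout of NRF2, had the smallest spread between replicates of the members relative to its mean. NQO1 (ENSG00000181019, chromosome 16, 69706996 to 69726951, minus strand) was at 571.0 and 590.7 CPM in the control_sh libraries and at 292.3 and 284.2 CPM in the RBM25_sh libraries. All 4 libraries kept close to their group's mean. The means of 581 ± 13.9 and 288 ± 5.73 CPM (SD, n = 2 each) correspond to a log2 value of −1.01 ± 0.26 for RBM25_sh over control_sh (edgeR adjusted p = 0.0652). The edgeR error draws on the spread of other genes, since 2 libraries per group leave 2 residual degrees of freedom. NQO1 passed after the GC correction (−1.07 ± 0.15, edgeR adjusted p = 0.00171), with library totals as the only scaling (edgeR adjusted p = 0.0481), and without control_sh replicate 1 or 2 (edgeR adjusted p = 0.0104 and 0.0172). It did not pass without RBM25_sh replicate 1 or 2 (edgeR adjusted p = 0.616 and 0.515). It shares 575 exon bases with an antisense gene, AC092115.2, which had 0 counts in every library.

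HMOX1, heme oxygenase, which breaks heme down to biliverdin, iron and carbon monoxide, had overlapping groups. HMOX1 (ENSG00000100292, chromosome 22, 35380361 to 35394214, plus strand) was at 27.4 and 40.3 CPM in the control_sh libraries and at 33.8 and 46.8 CPM in the RBM25_sh libraries. The groups overlapped, and replicate 2 was the higher in each. The log2 fold change was 0.25 ± 0.32 (edgeR adjusted p = 0.696). Over the 1229 genes within 2 percentage points of the GC content of HMOX1 the median log2 fold change was −0.16. At a GC content of 58.1%, the corrected values of 30.4 and 31.9 against 41.4 and 43.5 CPM did not overlap, and HMOX1 was called higher (0.44 ± 0.14, edgeR adjusted p = 0.0384). In the fit with no such correction, leaving out control_sh replicate 1 gave a log2 fold change of 0.00745 and leaving out RBM25_sh replicate 2 gave 0.0378. The difference between the responses of HMOX1 and NQO1 was not tested.

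ME1, the cytosolic malic enzyme, which makes NADPH, did not differ between the groups beyond the spread of the libraries. ME1 (ENSG00000065833, chromosome 6, 83210389 to 83431071, minus strand) was at 140.8 and 83.5 CPM in the control_sh libraries and at 150.2 and 111.2 CPM in the RBM25_sh libraries. The groups overlapped and replicate 1 was the higher in each. The log2 fold change was 0.22 ± 0.33 (edgeR adjusted p = 0.743), 0.06 ± 0.13 after the GC correction (edgeR adjusted p = 0.775) and −0.11 without control_sh replicate 2.

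**Figure D3:**
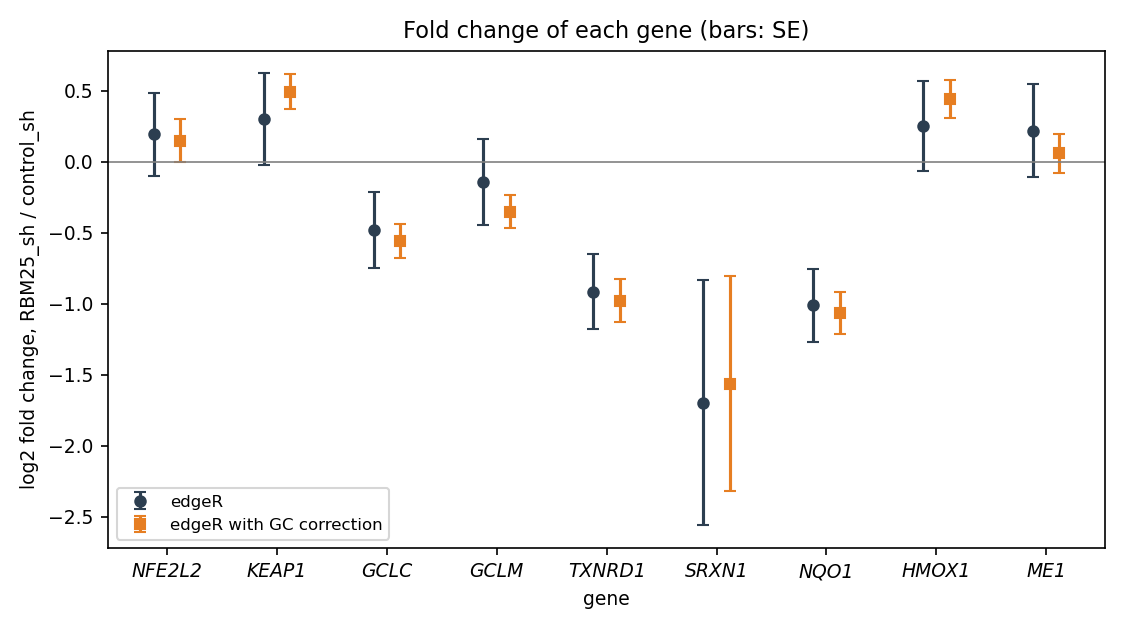
Log2 fold change of RBM25_sh over control_sh for the 9 genes by edgeR, without (circles) and with (squares) the GC correction, with bars for the SE. NQO1 at −1.01 and TXNRD1 at −0.91 lie lowest among genes with errors near 0.26, and the SRXN1 error of 0.86 is the widest.

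Levels were compared between genes per length, as deposited FPKM (fragments per length of gene and per library size) in the control_sh libraries. NQO1 stood at 168.9 and 174.1 FPKM and TXNRD1 at 164.4 and 133.5 FPKM, so that both lay far above the other members. ME1 followed at 40.2 and 23.8 FPKM, NFE2L2 at 28.5 and 19.2, GCLC at 20.9 and 18.0 and KEAP1 at 15.8 and 22.6 FPKM. GCLM was at 20.4 and 13.4 FPKM, HMOX1 at 11.0 and 16.1, and SRXN1 at 3.39 and 18.5 FPKM. From ME1 down, every neighbour in this order overlapped the next in its range, so neighbours in this order are not separated by these libraries. SRXN1 has a gene length of 2698 bases and shares 2292 exon bases with AL121758.1 on the same strand. The part of this overlap in its FPKM was not tested. In the RBM25_sh libraries NQO1 (90.8 and 84.1 FPKM) and TXNRD1 (87.0 and 75.4 FPKM) were still the highest, now with overlapping ranges.

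The genes with the most similar profile over the 4 libraries were found by the root mean square difference of log2 CPM, centred per gene, among 10077 well-expressed protein-coding genes. For NFE2L2 these were KCTD3 (0.00712), YEATS4 (0.0185) and the spindle gene TPX2 (0.0191). For KEAP1 they were the focal adhesion gene ZYX (0.0127), AKT1S1 (0.0172) and BRAT1 (0.0210). For NQO1, the member with the smallest adjusted p, they were TSPYL4 (0.0211), the kinase gene RPS6KA2 (0.0382) and the RNA-binding protein gene RBMS2 (0.0388). With 4 libraries, such likeness describes the values and no more.

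Around the 9 genes, 6 lists of pathway genes held 125 genes, of which 113 were tested. None was called higher and 5 were called lower by edgeR, SLC7A11, GSTZ1, MTHFD2, ALDH1L2 and ABCC3, against 0.653% and 2.40% of all genes. Their median log2 fold change was −0.12, and 73 of the 113 lay below 0, where 8444 of all 16091 genes tested did. The GC correction called 19 higher and 31 lower, against 12.8% and 15.3% of all genes.

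Among 17 regulators of NRF2, all tested, edgeR called none, with 4 at an unadjusted p under 0.05 (3444 of 16091 over all genes, a similar share), and the median was −0.13. The lowest adjusted p-values were those of CAND1, a factor that exchanges the adaptors of cullin ligases, and MAFF, a small MAF partner. CAND1 was at 202.3 and 119.7 CPM in the control_sh libraries and at 381.9 and 321.1 in the RBM25_sh libraries (1.13 ± 0.32, edgeR adjusted p = 0.0872). MAFF was at 27.6 and 46.6 CPM against 13.6 and 21.1 CPM (−1.10 ± 0.36, edgeR adjusted p = 0.126). The groups did not overlap for either gene. After the GC correction 3 of the 17 were called higher and 4 lower, against 12.8% and 15.3% of all genes. Named after their values were seen, the 3 higher were GSK3B (0.56), PGAM5 (0.50) and CAND1 (0.98). Named likewise, the 4 lower were the 3 small MAF genes MAFF (−0.88), MAFG (−0.44) and MAFK (−0.74) and the NRF2 relative NFE2L1 (−0.72). CUL3 (0.21) and BACH1 (−0.12), the repressor at the same DNA elements, were not called. MAFK shares 809 exon bases with TMEM184A on the opposite strand, and MAFG 105 with SIRT7 on the same strand.

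Glutathione supply and breakdown had 14 of 15 genes tested, 12 of them below 0 (8444 of 16091 over all genes tested), with a median of −0.41. SLC7A11, the cystine importer that feeds glutathione synthesis, was the 1 gene called by edgeR, where 2.40% of all genes were called lower. It was at 539.7 and 305.4 CPM in the control_sh libraries and at 130.2 and 134.8 CPM in the RBM25_sh libraries. Both RBM25_sh libraries lay far below both controls (−1.67 ± 0.33, edgeR adjusted p = 0.0309). It passed without either control_sh library but not without RBM25_sh replicate 1 or 2 (edgeR adjusted p = 0.187 and 0.154), and shares 865 exon bases with SLC7A11-AS1. The GC correction called 1 gene of this list higher and 6 lower, against 12.8% and 15.3% of all genes. Among the 6, named after its values were seen, was CTH, which makes cysteine from cystathionine (−1.26 ± 0.17, edgeR adjusted p = 0.00149).

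Genes that use glutathione were evenly spread, with 12 of the 24 tested above 0 and 12 below, and a median of −0.0021. GSTZ1, a transferase of tyrosine breakdown, was the only one called by edgeR without the GC correction, where 2.40% of all genes were called lower. It was at 19.7 and 25.7 CPM in the control_sh libraries and at 3.02 and 3.31 CPM in the RBM25_sh libraries (−2.84 ± 0.33, edgeR adjusted p = 0.00647). The RBM25_sh libraries lay far below the controls, and the log2 fold change without 1 library ran from −3.01 to −2.63. The GC correction called 4 genes of this list higher and 3 lower, GSTZ1 among the 3, against 12.8% and 15.3% of all genes. Glutathione reductase, GSR, which was named after its values were seen, was at 265.1 and 216.1 CPM against 179.4 and 196.3 CPM (−0.36 ± 0.27, edgeR adjusted p = 0.480).

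Thioredoxin and peroxide removal was the 1 list with a median above 0 (0.17 over 21 genes tested of 22). Of these 13 lay above 0, where 7647 of all 16091 genes tested did. None was called by edgeR, 7 being at an unadjusted p under 0.05 (3444 of 16091 over all genes). SESN1, a sestrin, was at 21.6 and 15.1 CPM in the control_sh libraries and at 50.4 and 42.5 CPM in the RBM25_sh libraries (1.34 ± 0.31, edgeR adjusted p = 0.0501). The methionine sulfoxide reductase gene MSRB2 was at 7.72 and 10.8 CPM against 4.29 and 4.27 CPM (−1.12 ± 0.34, edgeR adjusted p = 0.108). Both lay without overlap, in opposite directions. The GC correction called 8 higher and 3 lower, against 12.8% and 15.3% of all genes. Among the 8, named after their values were seen, were the peroxiredoxin genes PRDX1 (0.58 ± 0.18), PRDX3 (0.53 ± 0.13) and PRDX6 (0.76 ± 0.13), which code for peroxidases. The other peroxiredoxin genes were not called, PRDX2 at 0.03 ± 0.13, PRDX4 at 0.15 ± 0.12 and PRDX5 at −0.83 ± 0.34 in that fit. SESN1 shares 363 exon bases with AL390208.1 and PRDX1 379 with MMACHC, both on the opposite strand. TXNIP, the thioredoxin inhibitor, had 4 counts in control_sh replicate 1 and 0 in the other libraries, and was not tested.

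Genes of NADPH supply had 14 of 17 tested, with 11 below 0 (8444 of 16091 over all genes tested) and a median of −0.30. By edgeR 2 were called lower, against 2.40% of all genes. MTHFD2, a mitochondrial folate enzyme, was at 691.3 and 516.7 CPM in the control_sh libraries and at 235.8 and 219.1 CPM in the RBM25_sh libraries (−1.41 ± 0.28, edgeR adjusted p = 0.0319). ALDH1L2, which makes mitochondrial NADPH from folate, was at 6.01 and 5.58 CPM against 1.21 and 1.78 CPM (−1.95 ± 0.41, edgeR adjusted p = 0.0403). Neither gene's groups overlapped. MTHFD2 lost its call without RBM25_sh replicate 1 or 2 (edgeR adjusted p = 0.260 and 0.288) and ALDH1L2 without RBM25_sh replicate 1 (edgeR adjusted p = 0.207), and limma-voom did not call ALDH1L2 (adjusted p = 0.0528). MTHFD2 shares 1324 exon bases with SLC4A5 and ALDH1L2 145 with C12orf45, both on the opposite strand. PGD, phosphogluconate dehydrogenase, named after its values were seen, was not called by edgeR (0.47 ± 0.27, adjusted p = 0.339) and was called higher after the GC correction (0.58 ± 0.12, edgeR adjusted p = 0.00972). That correction called 1 gene of this list, PGD, higher and 5 lower, against 12.8% and 15.3% of all genes. The 5 were MTHFD2, ALDH1L2 and, named after their values were seen, IDH2 (−1.16 ± 0.14), ME2 (−0.74 ± 0.12) and NADK (−0.73 ± 0.14).

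Heme, iron, quinone and carbonyl handling had the lowest median of the lists, −0.69. Of 26 listed genes 23 were tested, and 20 lay below 0, where 8444 of all 16091 genes tested did. ABCC3, an exporter of glutathione and glucuronide conjugates, was the 1 called by edgeR, where 2.40% of all genes were called lower. It was at 69.3 and 117.2 CPM in the control_sh libraries and at 18.8 and 26.6 CPM in the RBM25_sh libraries, well apart (−2.04 ± 0.35, edgeR adjusted p = 0.0210), and it lost the call without RBM25_sh replicate 1 (edgeR adjusted p = 0.151). The GC correction called 10 genes lower and 2 higher, against 15.3% and 12.8% of all genes. Among the 10, named after their values were seen, were the biliverdin reductase gene BLVRB (−1.56 ± 0.22), the ferritin light chain gene FTL (−0.53 ± 0.16) and NQO2, the relative of NQO1 (−0.76 ± 0.13). The 2 higher were HMOX2 (0.70 ± 0.14), the constitutive heme oxygenase, and BLVRA (0.48 ± 0.16). HMOX2 shares 228 exon bases with NMRAL1 on the opposite strand, and NQO2 292 with LINC01011 on the same strand.

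**Figure D4:**
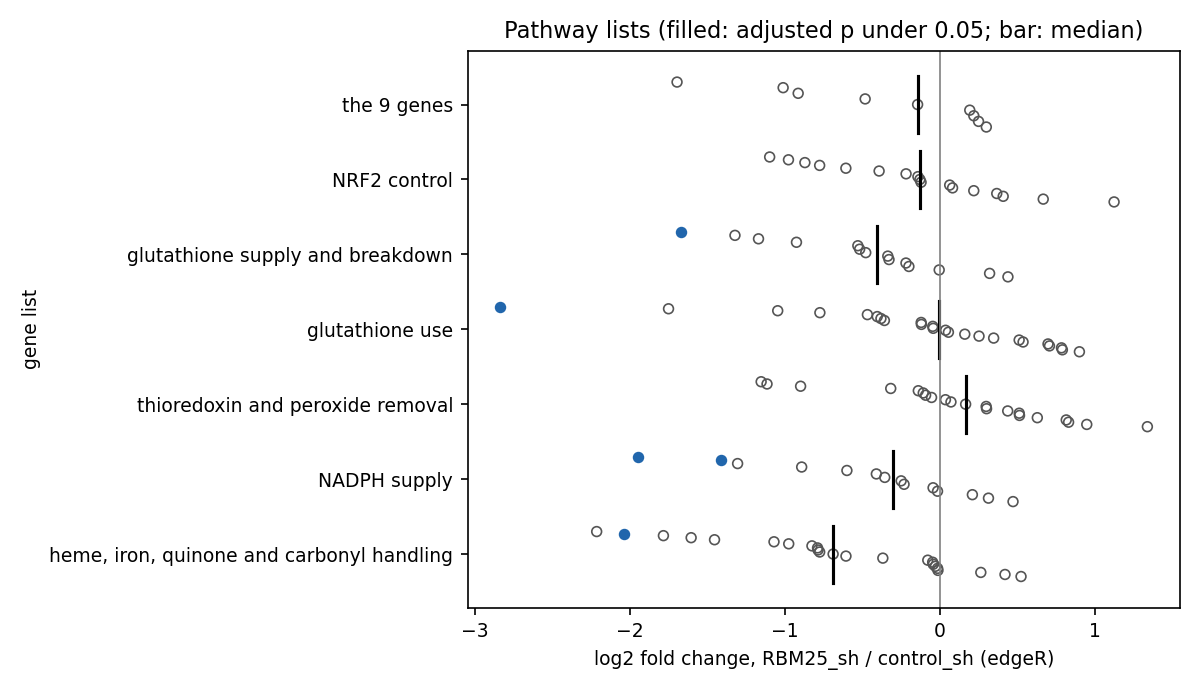
Log2 fold change by edgeR of the 9 genes and of the tested genes of 6 pathway lists, with filled points for adjusted p-values under 0.05 and bars for the medians. The 5 filled points are all below 0, and the medians run from −0.69 for heme, iron, quinone and carbonyl handling to 0.17 for thioredoxin and peroxide removal.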

How the data were processed

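For each of the 4 libraries the authors deposited counts per gene, as whole numbers, and FPKM per gene. Tools in the submitters' processing notes are TopHat2 2.0.9, Bowtie2 2.0.6, Cuffdiff 2.1.1 and Cufflinks 2.1.1. For the counting tool, strand setting and build, the entry is "not given in the sources used here". All 58735 gene positions equal GENCODE 29 on GRCh38. The deposited FPKM are the same counts divided by gene length and a factor per library, within 1%, and were used for levels between genes and for markers.

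Groups came from the sample titles. edgeR 4.0.16 (R 4.3.3) with filterByExpr, TMM scaling and its quasi-likelihood F test was applied to RBM25_sh against control_sh, two-sided, with Benjamini-Hochberg adjustment over 16091 genes. SE is the log2 fold change divided by the square root of F. For the GC correction, a lowess curve (span 0.3) per library, relating log2 CPM, centred per gene, to GC percent in a gene's longest transcript, entered as an offset. Alternatives were other scalings and filters, DESeq2 1.42.0, limma-voom (limma 3.58.1), a replicate block and leaving out each library. The members, lists and alternatives were chosen with earlier results of these data known. All 9 members and RBM25 are named, with up to 4 called genes of each pathway list, or else the 2 of lowest adjusted p, and others are marked as named after their values were seen. SOD2 has 2 gene IDs, of which 1 passed the filter. Figures were drawn with matplotlib 3.10.9.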

Additional observations from a re-analysis of the deposited data

How the results depend on the processing

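The count of members called depended on the processing. No member was called with DESeq2 size factors, a minimum of 1 CPM in every library of at least 1 group, or limma-voom. Members called lower numbered 1 with library totals only or the DESeq2 Wald test, 3 without a filter and 3 with the GC correction, which also called 2 higher, and 0 to 2 without 1 library. Among all genes 491 were called, 21.4% of them higher, against 1438 without a filter, 1085 by DESeq2 and 4518 with the GC correction, 45.5% of them higher, and 204 to 2389 without 1 library. With library totals only 534 genes were called, and the median of all genes moved from −0.04 to −0.15. DESeq2 size factors gave 466 genes, the minimum of 1 CPM gave 590 and limma-voom gave 374. Same-numbered libraries deviated together (correlation 0.47), and no label says what they share. With the replicate block 4 members (GCLC, TXNRD1, SRXN1, NQO1) were called lower and none higher. That fit called 5722 of all 16091 genes tested, 3081 lower and 2641 higher. With the block and the GC correction 5 members were lower and 2 higher, where 6332 genes were called, 3307 lower and 3025 higher. Without 1 library the log2 fold change ran from −0.0644 to 0.52 for NFE2L2, −0.0325 to 0.62 for KEAP1, −0.42 to 0.20 for GCLM, −3.75 to 0.0026 for SRXN1 and −0.11 to 0.65 for ME1. NQO1, TXNRD1 and GCLC kept their sign under every alternative run, as did HMOX1, which ran from 0.00745 to 0.556 without 1 library. Such fits compare unequal sets of replicates. The cause of these shifts was not tested.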
